A study of Mus musculus with 227 samples.

Results

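The 38 genes described here encode the machinery that folds, modifies, exports and finishes collagen, and they were read in single skeletal cells of newborn mouse long bones. They were taken by name from a list that was chosen with earlier results of these data known. All 38 were found among the 24388 genes of the deposited table. Fibrillar procollagen is threaded into the endoplasmic reticulum (ER), where its chains are hydroxylated and glycosylated on proline and lysine, joined by disulfide bonds and folded into a triple helix under the care of chaperones. The helix leaves the ER in enlarged COPII carriers, its propeptides are cut off outside the cell, and lysyl oxidases cross-link the fibres. Chondrocytes and osteoblasts are among the heaviest users of this route, and loss of several of these genes causes brittle bone disease in humans.

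The mice were BL6 animals at postnatal day 3, and cells of their long bones were sorted by flow cytometry into 4 populations, all lacking the blood antigens CD45 and Ter-119 and carrying AlphaV integrin. The 6C3+ cells were Thy-6C3+CD105+, the THY+ cells were Thy+6C3-CD105+, and the CSP cells were Thy-6C3-CD105+. The mSSC cells, the population that the series calls the mouse skeletal stem cell, were Thy-6C3-CD105-CD200+. The THY+, CSP and mSSC gates also named absence of Tie2, which the 6C3+ gate did not. Each library was 1 cell captured on a Fluidigm C1 chip and amplified with SMARTer chemistry. No animal or capture run is named in the labels, so each population counted as 1 sample, no difference between populations has a replicate check and no p-value was computed. Values were FPKM (fragments per kilobase, a measure already divided by transcript length), which allows levels of different genes to be set side by side.

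The main set held the cells with at least 1000 genes at an FPKM of at least 1: 34 of 92 6C3+ cells, 43 of 72 THY+ cells, 11 of 26 CSP cells and 37 of 37 mSSC cells. Their median number of detected genes was 2639 in 6C3+, 2835 in THY+, 3033 in CSP and 2534 in mSSC cells. Read depth is unknown. ERCC spike-in RNA took a median of 18.9% of all FPKM in 6C3+ and 20.8% in THY+ cells, against 0.000945% in CSP and 0.00117% in mSSC cells. Within THY+ cells it was 7.18% over the 20 cells of the first 2 index rows and 35.5% over the other 23. Within 6C3+ cells it was 0.893% over the 6 cells of those rows and 21.3% over the other 28. The median FPKM left for a cell's own genes was 366748 in 6C3+, 752613 in THY+, 578425 in CSP and 906237 in mSSC cells. Differences were therefore computed both as deposited and after scaling each cell to 1000000 FPKM over its own genes, and a difference given without a scale is as deposited. By their index names, the CSP and mSSC libraries share a set of index pairs and each of the other populations has its own. No plate is named in the labels, so a shared index set is not known to be a shared preparation. Index set cannot be told apart from population in any comparison except CSP against mSSC. Of 10 chondrocyte markers, 7 were detected in at least 50% of 6C3+ cells, 3 in THY+, 10 in CSP and 10 in mSSC cells. Blood and endothelial markers were at or near 0 in all populations.

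Several of the ER chaperones are known targets of the unfolded protein response, whose factors ATF6 and XBP1 bind the ER stress element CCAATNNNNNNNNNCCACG and, for XBP1, the UPRE core TGACGTGG. Promoter windows of 300 bases from RefSeq (GRCm38.p6, the same assembly as mm10) were matched for 29 of the 38 genes and searched on both strands. The element was present in the windows of 5 matched genes, Hspa5, Calr, Hsp90b1, Canx and Pdia6, and in 39 of all 32851 windows (0.119%). The UPRE core was present for Sec24d and Sec23a and in 0.676% of all windows. The ATF4 composite element TGATGNAAN, found in 1299 windows (3.95%), was in 0 of the matched members' windows. A match describes letters and is not a mapped binding site. Stretches from the windows of 6 of these genes are shown because they place the elements beside the genes whose levels follow. Capitals mark the motif. In Calr and in the second copy of Hsp90b1 the element lies on the opposite strand and reads in reverse complement.
Hspa5, chr2:34772005-34772063, plus strand: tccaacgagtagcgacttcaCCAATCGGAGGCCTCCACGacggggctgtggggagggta
Calr, chr8:84847055-84847113, minus strand: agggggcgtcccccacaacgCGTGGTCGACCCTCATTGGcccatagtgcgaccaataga
Hsp90b1, chr10:86705513-86705676, minus strand: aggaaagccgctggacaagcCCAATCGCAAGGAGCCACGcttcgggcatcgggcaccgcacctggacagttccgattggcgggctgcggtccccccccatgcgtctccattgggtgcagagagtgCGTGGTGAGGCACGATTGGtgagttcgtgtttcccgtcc
Canx, chr11:50325780-50325838, minus strand: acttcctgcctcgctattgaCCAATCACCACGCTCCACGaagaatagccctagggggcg
Pdia6, chr12:17266471-17266529, plus strand: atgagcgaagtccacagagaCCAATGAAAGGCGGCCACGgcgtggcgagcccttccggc
Sec24d, chr3:123267450-123267497, plus strand: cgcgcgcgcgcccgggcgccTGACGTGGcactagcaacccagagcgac
Positions are relative to the start of each gene in RefSeq, which for Hspa5 and Pdia6 lies downstream of the GENCODE gene start given with their levels. The elements lay between -65 and -47 in Hspa5, between -162 and -144 in Calr and between -145 and -127 in Canx. In Pdia6 the element lay between -98 and -80, while the 2 copies in Hsp90b1 fell within -212 to -89.

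The set as a whole was broadly expressed. Of the 38 genes, 29 were detected (FPKM of at least 1) in at least 50% of 6C3+ cells, 30 in THY+, 29 in CSP and 26 in mSSC cells. As a share of the FPKM of a cell's own genes, the 38 genes together took a median of 1.33% in 6C3+, 1.09% in THY+, 1.87% in CSP and 1.43% in mSSC cells. The collagens they serve, Col1a1 (the type I collagen chain of bone and fibrous tissue) and Col2a1 (the cartilage collagen), together took 2.47% in 6C3+, 1.19% in THY+, 3.25% in CSP and 2.59% in mSSC cells. Col2a1 made up over 50% of that sum in 12 of 34 6C3+ cells, 6 of 43 THY+ cells, 10 of 11 CSP cells and 33 of 37 mSSC cells.

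**Figure D1:**
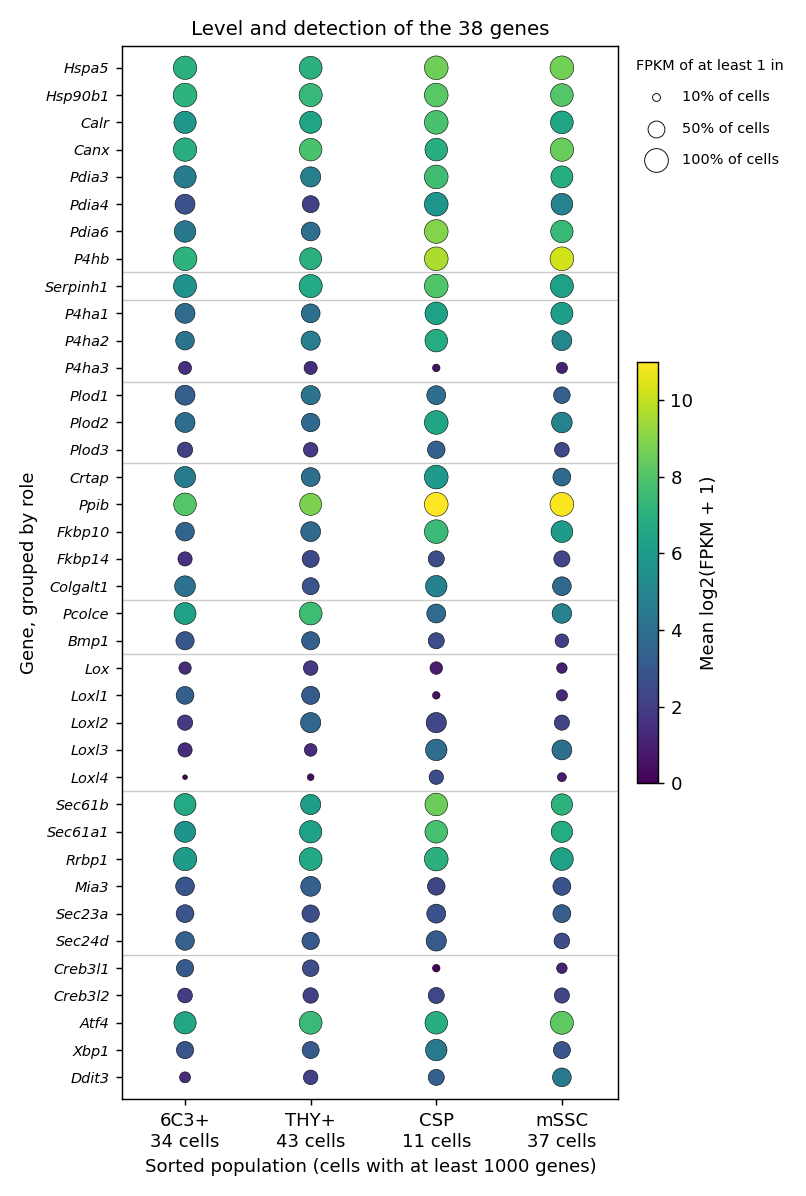
Level and detection of each of the 38 genes in each population, over cells with at least 1000 genes; colour gives the mean log2(FPKM + 1) and the size of the circle the share of cells with FPKM of at least 1. Hsp90b1, P4hb and Ppib are among the genes high in every population, and P4ha3 and Lox are among the low ones in all 4.

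The general ER chaperones were present in nearly all cells. Hspa5 (BiP, the ER Hsp70), at chr2:34771970-34777547 in mm10, had a median of 198.7 FPKM in 6C3+, 345.8 in THY+, 671.8 in CSP and 740.2 in mSSC cells. Hsp90b1 (GRP94, the ER Hsp90) had a median of 201.1 FPKM in 6C3+, 166.8 in THY+, 353.7 in CSP and 540.6 in mSSC cells. Both genes were detected in over 90% of the cells of every population, with the lower medians in 6C3+ and THY+ cells and overlapping ranges. Calr, a lectin chaperone that holds glycoproteins during folding, had a median of 134.1 FPKM in 6C3+, 193 in THY+, 167.1 in CSP and 208.4 in mSSC cells. Canx, its membrane-bound relative, had 139.1 FPKM in 6C3+, 535 in THY+, 335.8 in CSP and 464.4 in mSSC cells.

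The disulfide isomerases had their higher medians in CSP and mSSC cells. P4hb encodes protein disulfide isomerase, which is also the beta subunit of prolyl 4-hydroxylase, and lies at chr11:120560298-120573253. Its lowest, median and highest FPKM were 4.76, 171.2 and 1335 in 6C3+ cells and 0, 210.3 and 5460 in THY+ cells. They were 39.4, 926.6 and 3620 in CSP cells and 41.8, 1617 and 5684 in mSSC cells. The CSP and mSSC ranges overlapped those of 6C3+ and THY+ cells. Pdia6, another isomerase of the ER lumen (chr12:17266545-17284770), had a median of 27.5 FPKM in 6C3+ and 19.8 in THY+ cells, against 792.8 in CSP and 569.9 in mSSC cells. Its highest value was 388.2 FPKM in 6C3+, 1379 in THY+, 1970 in CSP and 9059 in mSSC cells, and its lowest was 0 in all but CSP cells, where it was 39.1. Pdia3, which works with calnexin and calreticulin, was detected in 30 of 34 6C3+, 31 of 43 THY+, 11 of 11 CSP and 32 of 37 mSSC cells. Pdia4 had a median of 3.03 FPKM in 6C3+, 1.71 in THY+, 25 in CSP and 13.2 in mSSC cells. Together these 4 genes took a median of 0.104% of a cell's own FPKM in 6C3+ and 0.087% in THY+ cells, against 0.352% in CSP and 0.347% in mSSC cells. This share leaves the spike-ins out.

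Serpinh1 (HSP47, the chaperone dedicated to procollagen, chr7:99345376-99353239) was ordered differently, with its lowest medians as deposited in 6C3+ and mSSC cells. As a share of a cell's own FPKM its medians were 0.0196% in 6C3+, 0.0198% in THY+, 0.0278% in CSP and 0.0117% in mSSC cells. As deposited, Serpinh1 had a median of 57.3 FPKM (lowest 0, highest 646.2) in 6C3+ and 137.2 (0 to 2363) in THY+ cells. In CSP cells the median was 258 FPKM (79.6 to 1146), while mSSC cells had 87.1 (0 to 820.6). It was detected in 32 of 34 6C3+, 41 of 43 THY+, 11 of 11 CSP and 35 of 37 mSSC cells, so nearly every cell of each population carried it.

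Among the modifying enzymes, the prolyl 4-hydroxylase alpha subunits, the catalytic part of the enzyme that stabilises the helix, differed by isoform. P4ha1 had a median of 16.1 FPKM in 6C3+, 22.4 in THY+, 161.5 in CSP and 170.6 in mSSC cells. P4ha2 had 19.8 FPKM in 6C3+, 32.7 in THY+, 362 in CSP and 55.9 in mSSC cells. CSP cells thus had a high median for both, mSSC cells for P4ha1, and P4ha3 had a median of 0 in every population. Plod2, the lysyl hydroxylase of the telopeptides, had a median of 14.1 FPKM in 6C3+, 9.55 in THY+, 108.5 in CSP and 41 in mSSC cells, and every CSP cell was at 2.41 or above. Plod1, which hydroxylates lysines of the helix, had 8.29 FPKM in 6C3+, 18.8 in THY+, 37.1 in CSP and 0.847 in mSSC cells. Plod3, which also carries glycosyltransferase activity, had a median of 0 in 6C3+, THY+ and mSSC cells and 1.84 FPKM in CSP cells. Colgalt1, which adds galactose to hydroxylysine, had 25.5 FPKM in 6C3+, 1.58 in THY+, 22.8 in CSP and 1.85 in mSSC cells, so the 6C3+ and CSP medians were the high ones.

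The prolyl isomerases and the prolyl 3-hydroxylation complex included the member with the highest median. Ppib (cyclophilin B, chr9:66060222-66066623), which speeds the folding of the helix, had a lowest, median and highest FPKM of 0, 466.6 and 2381 in 6C3+ and 0, 1203 and 9236 in THY+ cells. The values were 480.9, 2564 and 4601 in CSP cells, and 84, 1986 and 6339 in mSSC cells. All CSP and mSSC cells held Ppib, while 3 of 34 6C3+ and 6 of 43 THY+ cells were listed at 0. Fkbp10 (FKBP65, a procollagen isomerase and chaperone, chr11:100415697-100424824) was detected in 21 of 34 6C3+, 30 of 43 THY+, 11 of 11 CSP and 31 of 37 mSSC cells. Crtap, the scaffold of the 3-hydroxylation complex, had a median of 31.7 FPKM in 6C3+, 12.5 in THY+, 69.1 in CSP and 3.56 in mSSC cells. Every CSP cell held both genes, with a lowest Crtap value of 4.91 FPKM, whereas Crtap was listed at 0 in 16 of 37 mSSC cells. Fkbp14, an ER isomerase, had a median of 2.01 FPKM in THY+ cells and 0 in the other populations.

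**Figure D2:**
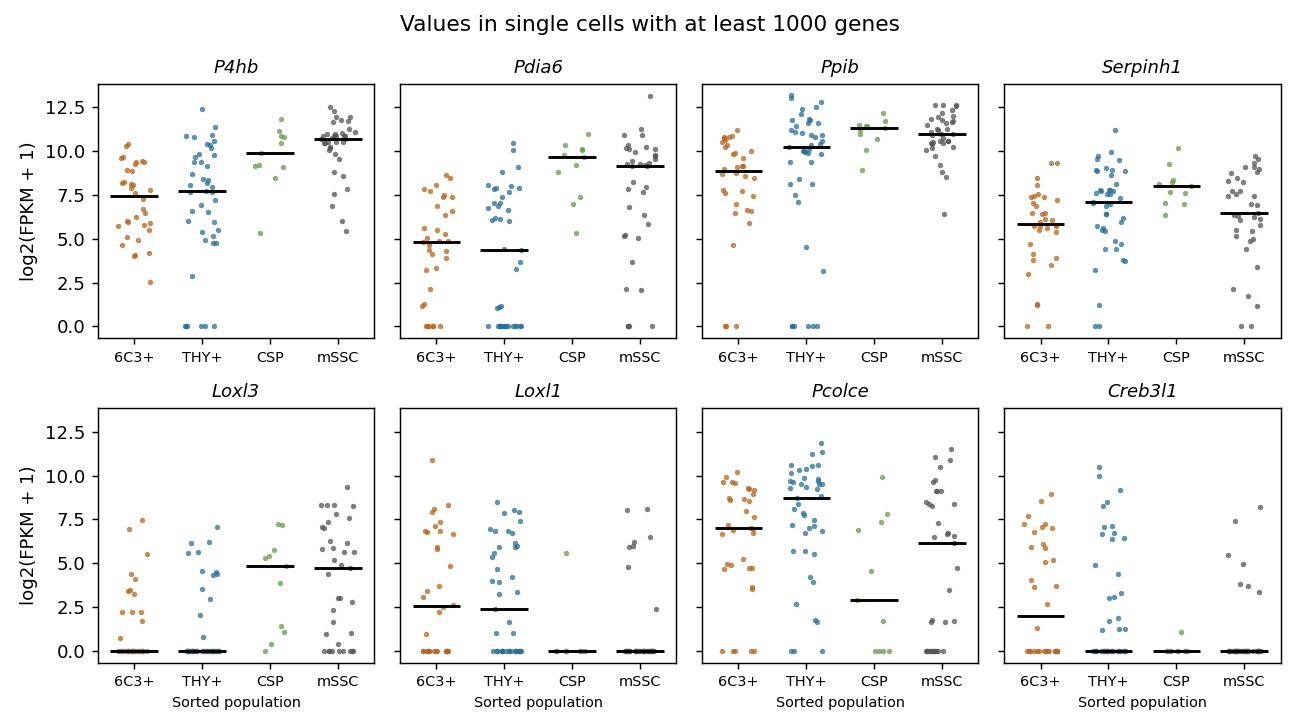
FPKM of 8 genes in every cell with at least 1000 genes (log2(FPKM + 1), 1 point per cell, bar at the median), by population. P4hb and Pdia6 have their higher medians in CSP and mSSC cells, and Loxl1 and Pcolce in 6C3+ and THY+ cells, while Creb3l1 has a median above 0 in 6C3+ cells alone among the 4 populations; all ranges overlap.

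The genes that act outside the cell had another order. Pcolce (chr5:137605103-137613784), which enhances cleavage of the procollagen C-propeptide, had a median of 125.9 FPKM (0 to 1176) in 6C3+ and 425 (0 to 3764) in THY+ cells. Its median was 6.6 FPKM (0 to 947.9) in CSP cells and 69.7 (0 to 2953) in mSSC cells. Bmp1, the C-proteinase itself, had medians of 12.5 FPKM in 6C3+, 3.81 in THY+, 0 in CSP and 0 in mSSC cells. Both genes thus had their higher medians in 6C3+ and THY+ cells. The lysyl oxidases each had their own distribution. Loxl1 (chr9:58287738-58313186) was found in 19 of 34 6C3+ cells (55.9%, exact Clopper-Pearson 95% interval 37.9 to 72.8) and 25 of 43 THY+ cells (58.1%, 42.1 to 73), against 1 of 11 CSP cells (9.09%, 0.23 to 41.3) and 8 of 37 mSSC cells (21.6%, 9.83 to 38.2). Loxl3 (chr6:83034173-83052562) ran the other way, with 12 of 34 6C3+ cells (35.3%, 19.7 to 53.5) and 12 of 43 THY+ cells (27.9%, 15.3 to 43.7), against 9 of 11 CSP cells (81.8%, 48.2 to 97.7) and 26 of 37 mSSC cells (70.3%, 53 to 84.1). These intervals cover counting error between cells only. Loxl2 was detected in 14 of 34 6C3+, 31 of 43 THY+, 8 of 11 CSP and 15 of 37 mSSC cells. Lox had a median of 0 in each population, and Loxl4 was detected in 1 of 34 6C3+, 3 of 43 THY+, 4 of 11 CSP and 5 of 37 mSSC cells.

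The export machinery spanned high and low levels. Sec61a1, the pore of the translocon, had a median of 118.2 FPKM in 6C3+, 62.8 in THY+, 343.4 in CSP and 375.5 in mSSC cells. Its partner Sec61b had 182.7 FPKM in 6C3+, 301.6 in THY+, 685 in CSP and 425.3 in mSSC cells. Rrbp1, a ribosome receptor of the rough ER, had 90.9 FPKM in 6C3+, 132.8 in THY+, 179.6 in CSP and 134.2 in mSSC cells, within a 2-fold span. Mia3 (TANGO1), which loads procollagen into COPII carriers, had 5.95 FPKM in 6C3+, 4.71 in THY+, 1.41 in CSP and 3.21 in mSSC cells. The COPII coat genes Sec23a and Sec24d had medians of at most 4.31 and 12.6 FPKM in any population.

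Of the transcription factors, Atf4, the effector of the integrated stress response, had the highest medians, 199.1 FPKM in 6C3+, 217.1 in THY+, 207.5 in CSP and 491.1 in mSSC cells. Creb3l1 (OASIS, which drives secretory and type I collagen genes in osteoblasts; chr2:91982328-92024502) was detected in 18 of 34 6C3+ cells (52.9%, 35.1 to 70.2) and 21 of 43 THY+ cells (48.8%, 33.3 to 64.5), against 1 of 11 CSP cells (9.09%, 0.23 to 41.3) and 7 of 37 mSSC cells (18.9%, 7.96 to 35.2). Ddit3 (CHOP, a stress factor downstream of ATF4) was detected in 7 of 34 6C3+ cells (20.6%, 8.7 to 37.9), 16 of 43 THY+ cells (37.2%, 23 to 53.3), 5 of 11 CSP cells (45.5%, 16.7 to 76.6) and 23 of 37 mSSC cells (62.2%, 44.8 to 77.5). Creb3l1, like Loxl1, was thus detected in larger shares of 6C3+ and THY+ cells than of mSSC and CSP cells, and the order of Ddit3 ran from mSSC at the top to 6C3+ at the bottom, with overlapping intervals between neighbours. Xbp1, the spliced factor of the unfolded protein response, had a median of 1.16 FPKM in 6C3+, 1.19 in THY+, 59.4 in CSP and 4.63 in mSSC cells. Creb3l2, a relative of Creb3l1, had a median of 0.777 FPKM in CSP cells and 0 in the other populations.

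Differences between populations were then taken as the difference of mean log2(FPKM + 1) over cells, with a difference of at least 1 (2-fold on that scale) counted as higher or lower. This scale understates the fold of genes at low levels, and a mean over cells moves with the share of cells at 0 as well as with the level in the rest. The same count over the 7867 genes detected in at least 10% of cells on average over the 4 populations, all 38 members included, gives the background. In THY+ against mSSC cells, 11 members were lower, against a background of 10.6% of genes, and 5 were higher, against 10.7%. The median difference was -0.51 over the members and 0.1 over all genes. After scaling to each cell's own genes, 10 members were lower and 6 higher (background 9.32% and 14.1%), with medians of -0.22 for members and 0.2 for all genes.

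The lower members in THY+ cells were led by the disulfide isomerases: Pdia6 by -3.45, P4hb by -3.25, Pdia4 by -2.77 and Pdia3 by -2.12 in log2 difference (scaled -3.29 for Pdia6, -3.05 for P4hb, -2.78 for Pdia4 and -1.89 for Pdia3). P4hb averaged 6.98 ± 3.54 in THY+ cells and 10.23 ± 1.65 in mSSC cells (mean log2 level, SD over 43 and 37 cells), so the gap was of the size of the spread between THY+ cells. The others were Loxl3 (-2.69), Ddit3 (-2.41), Fkbp10 (-2.29), Ppib (-2.10), P4ha1 (-2.08), Hspa5 (-1.61) and Plod2 (-1.22, and -0.92 after scaling), and all but Plod2 were at -1.18 or below after scaling. The higher members were Pcolce (2.72), Loxl1 (1.77), Creb3l1 (1.63), Loxl2 (1.39) and Bmp1 (1.29), each with a difference of at least 1.63 after scaling. Plod1, at 0.89 as deposited, was 1.10 after scaling. The 3 other ER chaperones lay within the threshold, Hsp90b1 at -0.67, Canx at -0.63 and Calr at -0.08, as did Serpinh1 at 0.37 and Rrbp1 at 0.30. The higher members were 4 genes of the extracellular steps and 1 transcription factor, and 9 of the 11 lower members act inside the ER. Much of the set acts there: 8 chaperones and isomerases, Serpinh1, 3 prolyl 4-hydroxylase subunits, 3 lysyl hydroxylases and 5 genes of the 3-hydroxylation group. The extracellular steps hold 2 processing genes and 5 lysyl oxidases. Of these Loxl3 was lower, and Lox (0.89) and Loxl4 (-0.43) lay within the threshold. Of 4 tested osteoblast markers 0 passed the threshold in either direction, and of 5 fibroblast and periosteal markers 3 were higher and 2 lower. All 10 chondrocyte markers were lower in THY+ cells as well (median difference -6.52), and 4 of 5 pericyte and smooth muscle genes were higher. The chondrocyte markers summed to 0 to 7.44% of a cell's own FPKM in THY+ cells, against 0.00299% to 11.4% in mSSC cells. The part of those markers in the result was not tested. With both populations limited to cells with at most 1 of 4 pericyte genes (29 THY+ and 36 mSSC cells), 13 members were lower (background 12.2%) and 6 higher (9.51%). Without the THY+ libraries of the first 2 index rows, leaving 23 cells, 18 were lower (background 16.4%) and 6 higher (8.49%). With all 72 THY+ cells, 23 were lower (background 24.4%) and 0 higher (1.65%).

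**Figure D3:**
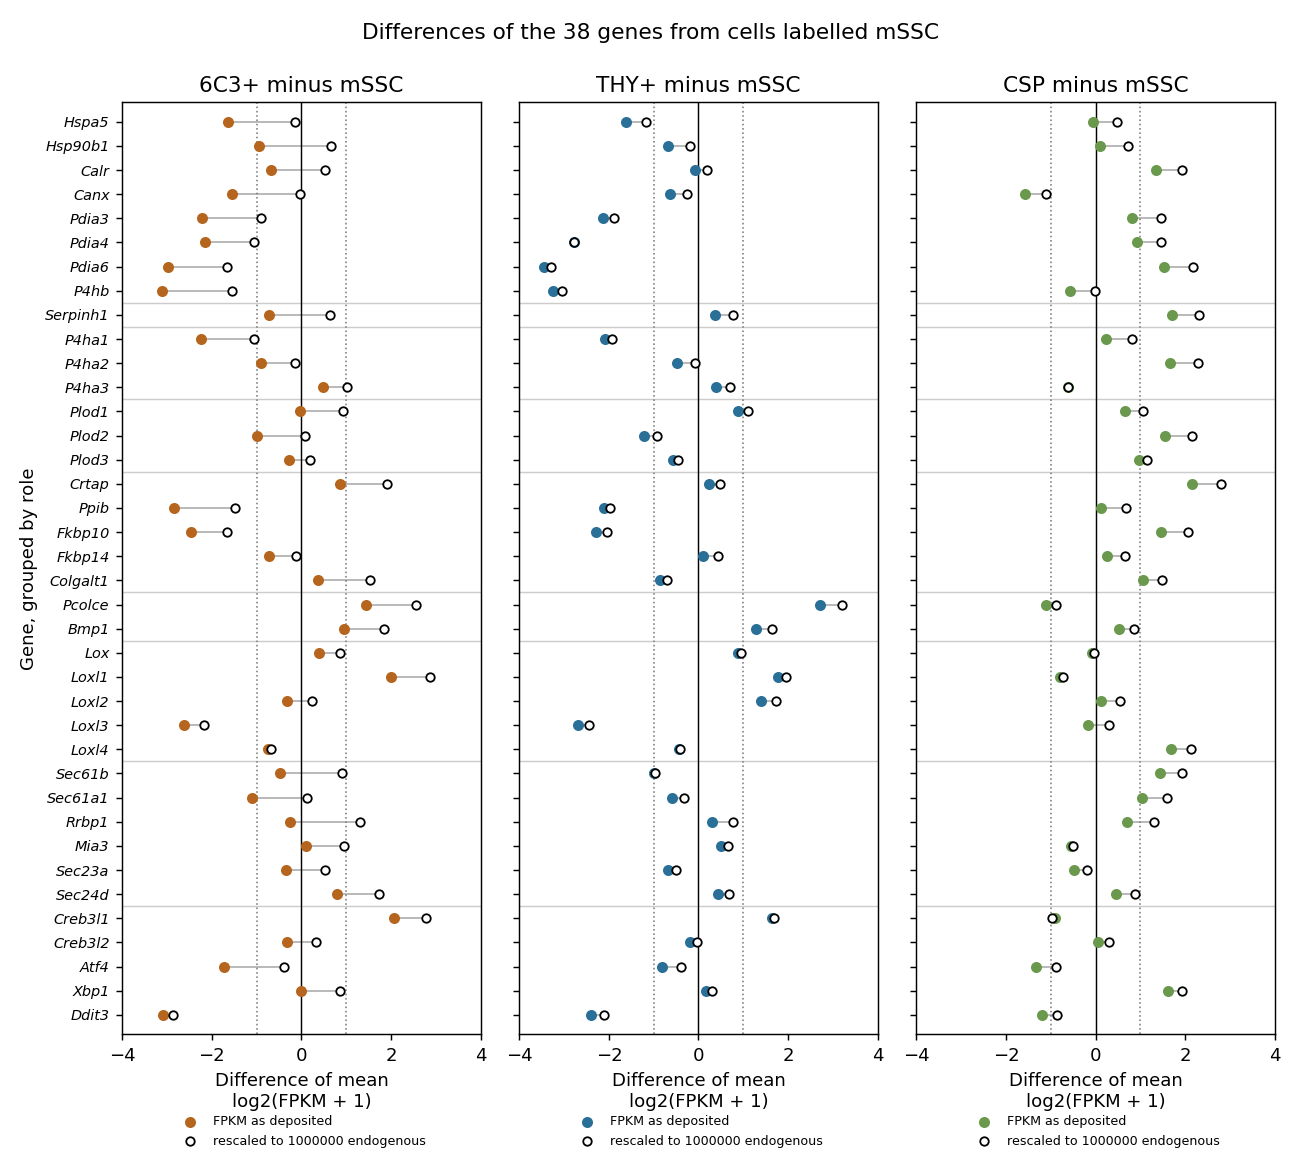
Difference in mean log2(FPKM + 1) from mSSC cells for each of the 38 genes in 6C3+, THY+ and CSP cells; filled points are FPKM as deposited, open points FPKM scaled to each cell's own genes, and dotted lines mark -1 and 1. In THY+ cells both points fall on the same side for most genes, whereas in 6C3+ cells the open points lie further to the right, towards higher values.

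In 6C3+ against mSSC cells, 14 members were lower (background 14.8%) and 3 were higher (background 4.89%), with a median of -0.7 over members and -0.13 over all genes. The scaling moved many of these calls: with each cell scaled to its own genes, 8 were lower and 9 higher (background 6.61% and 16.1%), and the member median was 0.28 against 0.24 for all genes. Lower by at least 1 on both scales were P4hb (-3.12, scaled -1.56), Ddit3 (-3.09, scaled -2.86), Pdia6 (-2.98, scaled -1.67), Ppib (-2.85, scaled -1.49), Loxl3 (-2.63, scaled -2.18), Fkbp10 (-2.47, scaled -1.67), P4ha1 (-2.25, scaled -1.06) and Pdia4 (-2.15, scaled -1.06). Higher on both scales were Creb3l1 (2.07, scaled 2.79), Loxl1 (2.00, scaled 2.88) and Pcolce (1.44, scaled 2.55). These are genes that differed in the same direction in THY+ cells, but the 2 comparisons share the mSSC cells. The remaining 6 lower genes lost the threshold when scaled: Pdia3 (-2.23, scaled -0.91), Atf4 (-1.73, scaled -0.38), Hspa5 (-1.63, scaled -0.15), Canx (-1.55, scaled -0.03), Sec61a1 (-1.11, scaled 0.13) and Plod2 (-1.0, scaled 0.08). Crtap (0.85), Bmp1 (0.95), Sec24d (0.79), Colgalt1 (0.38), P4ha3 (0.48) and Rrbp1 (-0.25) passed 1 only after scaling, at 1.91, 1.84, 1.73, 1.52, 1.02 and 1.3. Pcolce turned to -0.37 when the log2 of the mean FPKM was compared in place of the mean of logs, its highest value being 1176 FPKM in 6C3+ and 2953 in mSSC cells. All 10 chondrocyte markers were lower in 6C3+ cells too (median difference -5.37), summing to 0.000669% to 10.8% of a cell's own FPKM in 6C3+ cells, and their part was not tested. Of 4 tested osteoblast markers 0 passed the threshold, and of 5 fibroblast and periosteal markers 3 were higher and 2 lower (3 and 0 after scaling). In the 15 6C3+ cells with at most 1 of 5 cartilage genes, 21 members were lower (background 18.9%) and 3 higher (8.2%), as deposited. The log2 of the mean FPKM gave 22 lower, against 53.1% of all genes, and all 92 6C3+ cells gave 32 lower (39.3%) and 0 higher (0.114%).

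The CSP and mSSC libraries share an index set, carry little spike-in and both hold all 10 chondrocyte markers in at least 50% of cells. In CSP against mSSC cells 12 members were higher (background 15.7%) and 4 lower (background 10.5%), with medians of 0.36 over members and 0.05 over all genes. After scaling 17 were higher and 1 lower (background 21.3% and 8.61%), with medians of 0.84 and 0.19. The higher members were Crtap (2.16), Serpinh1 (1.71), Loxl4 (1.69), P4ha2 (1.66), Xbp1 (1.61), Plod2 (1.54), Pdia6 (1.53), Fkbp10 (1.47), Sec61b (1.45), Calr (1.35), Colgalt1 (1.05) and Sec61a1 (1.03). Serpinh1 averaged 7.98 ± 1.07 in CSP cells and 6.27 ± 2.64 in mSSC cells (mean log2 level, SD over 11 and 37 cells). Each of these 12 had a difference of at least 1.49 after scaling. Loxl4 had a median of 0 in CSP cells. Its average detection share of 14.9%, against the filter of 10%, rested mostly on CSP cells (36.4%). The shares were 2.94% in 6C3+, 6.98% in THY+ and 13.5% in mSSC cells, so the Loxl4 call is not independent of the filter. The lower members were Canx (-1.57), Atf4 (-1.32), Ddit3 (-1.19) and Pcolce (-1.10), of which Canx alone stayed below -1 after scaling, at -1.10. These are values of 11 cells. With the log2 of the mean FPKM, 1 member was higher (background 13.5%) and 10 lower (42.9%), and Crtap (-0.35), Fkbp10 (-0.5), Colgalt1 (-0.2), Pdia6 (-0.09) and P4ha2 (-0.02) turned sign. With all 26 CSP cells, 15 of them under 1000 genes, 0 members were higher (background 0.381%) and 28 lower (34%).

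As deposited, 6C3+ against THY+ cells gave 4 calls among the members. Only Colgalt1 was higher (1.23, background 2.03%), and Loxl2 (-1.72), Pcolce (-1.28) and Serpinh1 (-1.10) were lower (background 11.1%). The other 34 lay within 1, with a median of -0.18 over all members and -0.24 over all genes. After scaling 10 were higher and 1 lower (background 9.55% and 5.45%), with member and all-gene medians of 0.47 and 0.06. The largest scaled differences were Colgalt1 (2.22), Sec61b (1.88), Pdia4 (1.72) and Pdia6 (1.62), and Loxl2 remained lower at -1.51. The count of lower members depended on the setting: the log2 of the mean FPKM gave 19 (background 56.3%), all cells 17 (15.7%), cells with at least 2000 genes 8 (17.8%) and cells with at most 1 of 4 pericyte genes 6 (8.82%). In these 2 populations 6 of 10 chondrocyte markers were higher in 6C3+ cells and 4 of 5 pericyte and smooth muscle genes lower, and their part was not tested.

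The relation of each gene to its substrate was read over the cells of 1 population at a time, as Spearman's rho with summed Col1a1 and Col2a1. Each value was first scaled to a total of 1000000 FPKM over the cell's own genes other than these 2 collagens, so that high collagen does not depress the rest. A rho of at least 0.3 was counted. In 6C3+ cells 14 of 38 members reached it, against 7.37% of all genes, and in THY+ cells 17 of 38, against 6.8%. In mSSC cells 1 of 38 did, against 3.29%. On FPKM as deposited the counts were 23 in 6C3+ (14.1% of genes), 23 in THY+ (12.4%) and 2 in mSSC cells (4.86%). With cells under 1000 genes added, they were 4 of 38 in 92 6C3+ cells (1.25%) and 3 of 38 in 72 THY+ cells (1.07%). The member medians were 0.22 in 6C3+, 0.28 in THY+ and -0.03 in mSSC cells, against 0.013 in 6C3+, 0.012 in THY+ and -0.016 in mSSC cells over all genes. Among genes detected in at least 50% of cells on average, where sparse values weigh less, 11 of 28 members in 6C3+, 13 of 28 in THY+ and 1 of 28 in mSSC cells reached 0.3, against 13.3% of 1537 genes in 6C3+, 11.4% in THY+ and 3.97% in mSSC cells. CSP cells were not read, because the collagen sum had a rho of -0.88 with the number of detected genes over the 11 cells. All these values are descriptions over cells that share an index set and a population, with no test. Whether the populations differ in the relation was not tested.

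**Figure D4:**
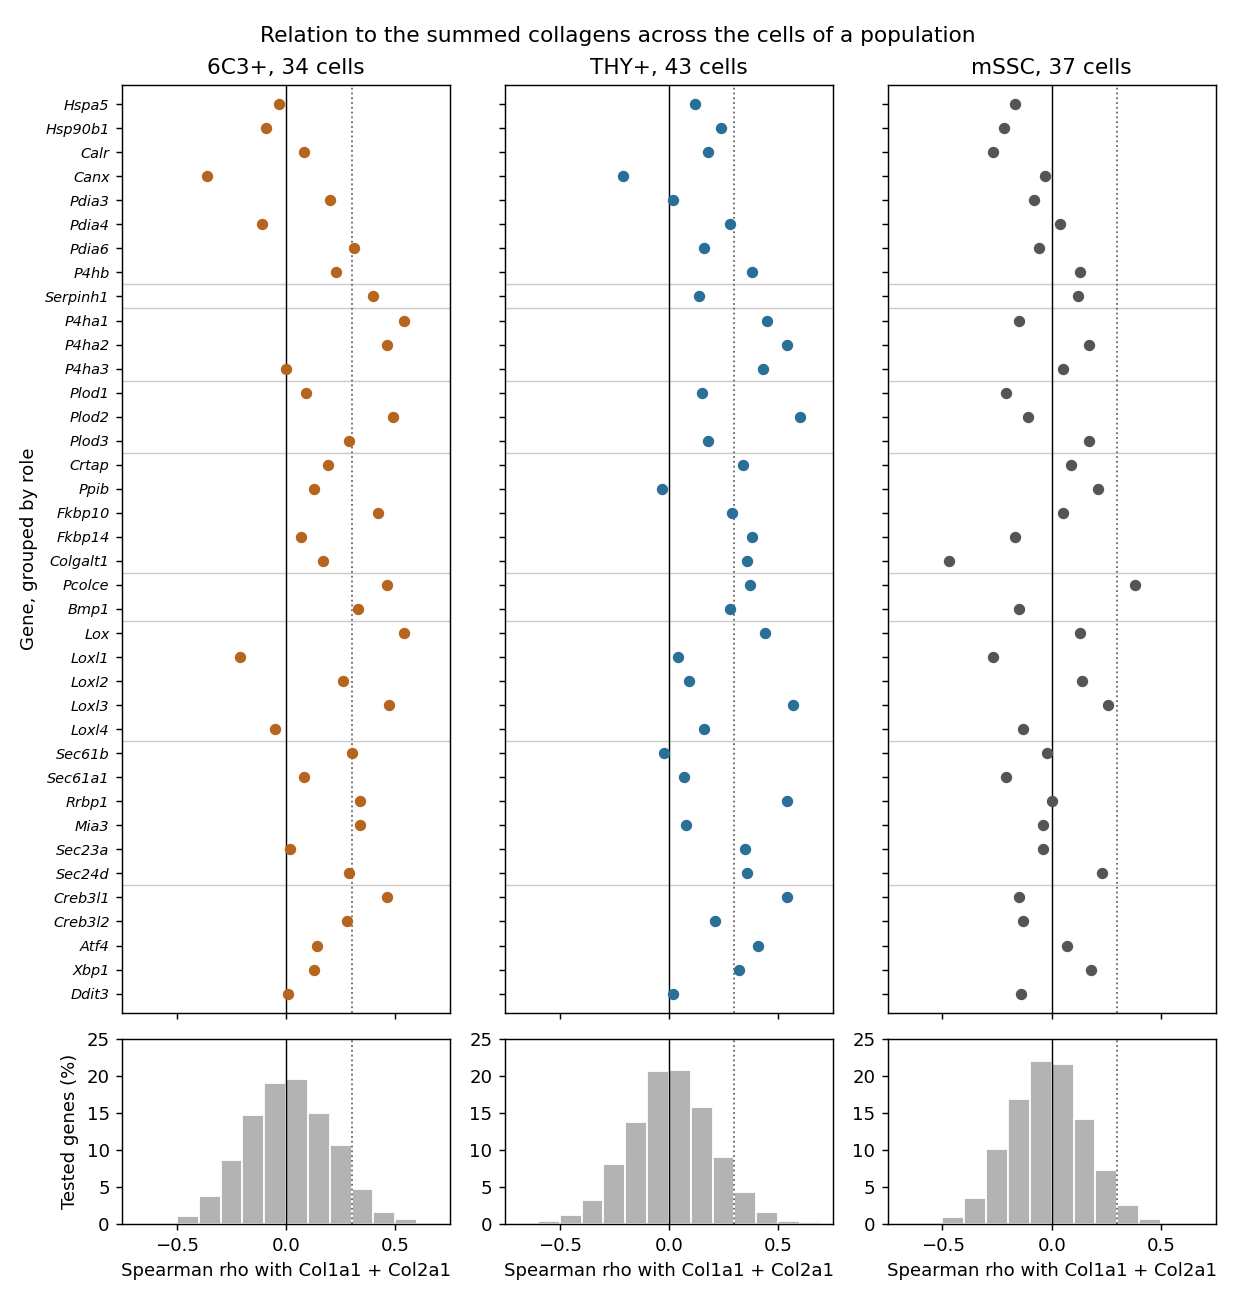
Spearman's rho of each of the 38 genes with summed Col1a1 and Col2a1 in 6C3+, THY+ and mSSC cells (points), with the distribution of rho over all genes in the same cells (histogram). Above 0 lie 32 of 38 members in 6C3+ (52.5% of all genes), 35 in THY+ (52.3%) and 16 in mSSC cells (46.2%).

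Among the members with a high rho were some of the enzymes that modify or cross-link the chain, while none of the 4 chaperones Hspa5, Hsp90b1, Calr and Canx reached 0.3 in any of the 3 populations on this scale. On FPKM as deposited, Hsp90b1 had 0.34 in 6C3+ and 0.40 in THY+ cells, and Calr had 0.43 in THY+ cells. In THY+ cells with at least 2000 genes, Hsp90b1 had 0.40 and Calr 0.43, and with Col1a1 alone Hsp90b1 had 0.32 and Calr 0.33. Plod2 had a rho of 0.49 in 6C3+ and 0.60 in THY+ cells, against -0.11 in mSSC cells. P4ha1 had 0.54 in 6C3+, 0.45 in THY+ and -0.15 in mSSC cells, and P4ha2 had 0.46 in 6C3+, 0.54 in THY+ and 0.17 in mSSC cells. These are 3 of the 6 hydroxylase members. Of the others, Plod1 had 0.09 in 6C3+, 0.15 in THY+ and -0.21 in mSSC cells, Plod3 had 0.29 in 6C3+, 0.18 in THY+ and 0.17 in mSSC cells, and P4ha3 had 0.0 in 6C3+, 0.43 in THY+ and 0.05 in mSSC cells. Lox had 0.54 in 6C3+, 0.44 in THY+ and 0.13 in mSSC cells, and Loxl3 had 0.47 in 6C3+, 0.57 in THY+ and 0.26 in mSSC cells. Creb3l1 had 0.46 in 6C3+, 0.54 in THY+ and -0.15 in mSSC cells, and the ribosome receptor Rrbp1 had 0.34 in 6C3+, 0.54 in THY+ and -0.0 in mSSC cells. The mSSC values depended on the collagen, since Col1a1 and Col2a1 had a rho of -0.44 with each other there as deposited. With Col1a1 alone, at a median of 3.29 FPKM in mSSC cells, Creb3l1 had 0.31, Lox 0.42 and Loxl2 0.47. Ddit3 (-0.49) and P4hb (-0.31) went the other way. Pcolce was the sole member to reach 0.3 in all 3 populations, at 0.46 in 6C3+, 0.37 in THY+ and 0.38 in mSSC cells. Of the chaperones, Hspa5 had -0.03 in 6C3+, 0.12 in THY+ and -0.17 in mSSC cells, and Hsp90b1 had -0.09 in 6C3+, 0.24 in THY+ and -0.22 in mSSC cells. Calr had 0.08 in 6C3+, 0.18 in THY+ and -0.27 in mSSC cells. Canx had the lowest value of any member in 6C3+ cells, -0.36, which was 0.02 on FPKM as deposited, and it had -0.21 in THY+ and -0.03 in mSSC cells.

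Other members reached 0.3 in 1 population. In 6C3+ cells these were Fkbp10 (0.42), Serpinh1 (0.40), Mia3 (0.34), Bmp1 (0.33), Pdia6 (0.31) and Sec61b (0.30). In THY+ cells they were P4ha3 (0.43), Atf4 (0.41), P4hb (0.38), Fkbp14 (0.38), Colgalt1 (0.36), Sec24d (0.36), Sec23a (0.35), Crtap (0.34) and Xbp1 (0.32). Serpinh1 had 0.14 in THY+ and 0.12 in mSSC cells, and P4hb 0.23 in 6C3+ and 0.13 in mSSC cells. Colgalt1 had the lowest rho of any member in mSSC cells, -0.47, which was -0.39 with Col2a1 alone and 0.12 with Col1a1 alone. Loxl1, higher in 6C3+ and THY+ than in mSSC cells, had a rho of -0.21 in 6C3+, 0.04 in THY+ and -0.27 in mSSC cells.

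The collagen sum moved with other features of the cells. It had a rho of 0.37 in 6C3+, 0.39 in THY+ and 0.15 in mSSC cells with the number of 5 cartilage genes detected, and of -0.39 in 6C3+, -0.55 in THY+ and -0.29 in mSSC cells with the number of 4 pericyte genes detected. Its rho with the number of all detected genes was 0.02 in 6C3+, -0.02 in THY+ and -0.14 in mSSC cells. With at most 1 pericyte gene, 29 THY+ cells remained and 9 members reached 0.3, against 5.78% of all genes. With at most 1 cartilage gene, 19 members did in 29 THY+ cells (9.41% of genes) and 15 in 15 6C3+ cells (13.4%). In these 15 6C3+ cells Lox (0.45), Creb3l1 (0.34), Pcolce (0.53), Fkbp10 (0.39), Serpinh1 (0.44), Mia3 (0.55) and Pdia6 (0.54) stayed above 0.3. Below it fell P4ha1 (0.27), Sec61b (0.26), P4ha2 (0.22), Plod2 (0.20), Loxl3 (0.19), Bmp1 (0.15) and Rrbp1 (0.01). The other members counted there were below 0.3 in the main 6C3+ set. In 6C3+ cells Col1a1 alone gave 0.16 for P4ha1 and 0.05 for P4ha2, but 0.31 for Plod2 and 0.57 for Lox. Some members low with the sum there had opposite signs with the single collagens. Plod1 had 0.48 with Col1a1 and -0.14 with Col2a1, P4ha3 0.37 and -0.26, and Loxl2 0.48 and -0.07. Atf4 ran the other way, at -0.33 and 0.35. Without the first 2 index rows, 11 members reached 0.3 in 23 THY+ cells (7.47%) and 13 in 28 6C3+ cells (8.66%). With Col2a1 alone the counts were 9 in 6C3+ (6.19% of genes) and 6 in THY+ cells (7.27%), and Lox (-0.04) and Sec24d (-0.04) in THY+ and Sec61b (-0.05) in 6C3+ cells turned sign. The part of the cartilage and pericyte genes in the relation was not tested beyond these subsets.

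**Figure D5:**
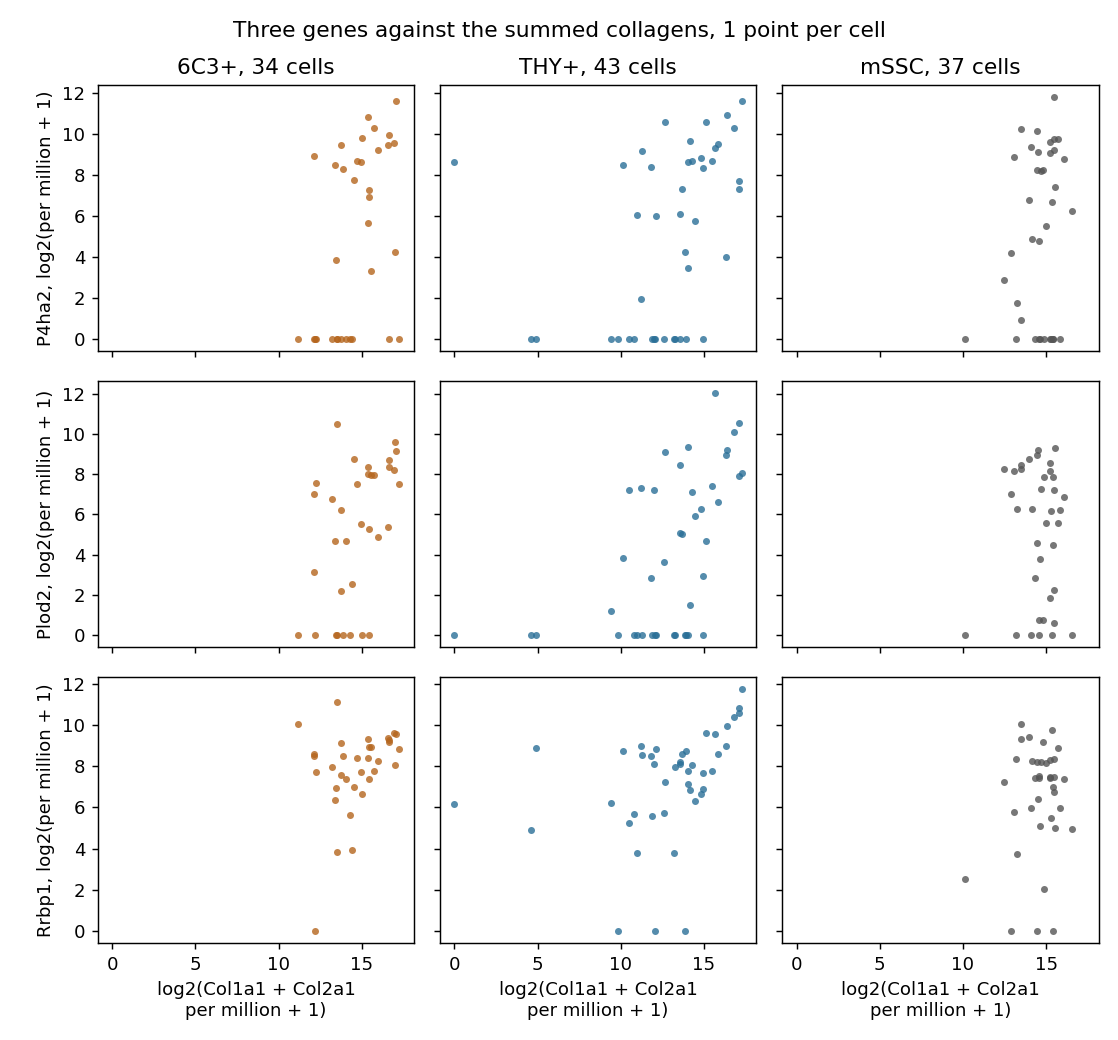
P4ha2, Plod2 and Rrbp1 against summed Col1a1 and Col2a1 in each cell (both as log2 of the scaled FPKM plus 1; 1 point per cell), for 6C3+, THY+ and mSSC cells. The collagen sum spans its widest range in THY+ cells, of which 1 has a sum of 0, and many cells lie at 0 for P4ha2 and Plod2.

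The range of collagen itself differed between populations. The lowest, median and highest sum was 278.7, 10572 and 72130 FPKM in 6C3+, 0, 7270 and 94160 in THY+, and 887, 23041 and 80232 in mSSC cells. With both sums scaled as for the single genes, the sum of the 38 genes had a rho with the collagen sum of 0.44 in 6C3+, 0.72 in THY+ and 0.0 in mSSC cells. Among themselves, all pairs of members had a median rho of 0.094 in 6C3+, 0.161 in THY+ and 0.074 in mSSC cells, against 0.032 in 6C3+, 0.042 in THY+ and 0.014 in mSSC cells for all pairs of tested genes. The highest pairs were Ppib with Sec23a (0.64) in 6C3+, Pdia3 with Sec61b (0.60) and Lox with Creb3l1 (0.60) in THY+, and Fkbp14 with Sec61a1 (0.62) in mSSC cells.

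Neighbouring parts of the secretory route were read from lists that do not include the 38 genes. Among 26 genes of the translocon, signal peptidase and oligosaccharyltransferase, 12 were lower and 0 higher in 6C3+ than in mSSC cells, and 10 lower and 1 higher in THY+ than in mSSC cells. The all-gene shares are those given above, 14.8% lower and 4.89% higher in 6C3+ and 10.6% lower and 10.7% higher in THY+ cells. After scaling, 6 were lower and 4 higher in 6C3+ (background 6.61% and 16.1%), and 10 lower and 3 higher in THY+ cells (9.32% and 14.1%). The glycosyltransferase subunits Rpn2 (-2.65 in 6C3+, scaled -1.70, and -2.73 in THY+, scaled -2.47) and Stt3a (-2.64 in 6C3+, scaled -1.69, and -2.90 in THY+, scaled -2.75) and the translocon-associated Ssr2 (-2.55 in 6C3+, scaled -1.42, and -3.20 in THY+, scaled -2.93) were among them. For these 3 genes the difference passed 1 on both scales in both populations. In CSP against mSSC cells 8 of the 26 were higher and 2 lower (background 15.7% and 10.5%), and 16 and 1 after scaling (21.3% and 8.61%), led by Srp68, a signal recognition particle subunit (2.13, scaled 2.62). Of 20 COPII and early Golgi genes, 6 were lower and 1 higher in 6C3+ than in mSSC cells, 4 lower and 0 higher in THY+ than in mSSC cells, and 0 lower and 6 higher in CSP than in mSSC cells. After scaling these counts were 3 lower and 4 higher in 6C3+, 3 lower and 1 higher in THY+, and 0 lower and 8 higher in CSP cells, with the backgrounds as above. Kdelr2, the receptor that returns escaped chaperones to the ER, had a median of 292 FPKM in 6C3+, 512 in THY+, 966 in CSP and 1471 in mSSC cells. Sec13, a coat subunit, was higher in CSP than in mSSC cells by 3.5 (scaled 4.04) and in 6C3+ than in THY+ cells by 1.66 (scaled 2.62).

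Among 20 tested genes of ER folding and quality control, CSP against mSSC cells had 9 higher and 3 lower (background 15.7% and 10.5%). After scaling 11 were higher and 3 lower (21.3% and 8.61%). In THY+ against mSSC cells 3 were higher and 2 lower (median difference 0.02), and 4 and 2 after scaling. In 6C3+ against mSSC cells 0 were higher and 2 lower (median -0.2), and 4 and 1 after scaling, with the backgrounds as above. Opposite values in CSP against mSSC cells were seen in 2 known unfolded protein response targets. Manf, a secreted stress-responsive factor, was detected in 11 of 11 CSP cells against 15 of 37 mSSC cells (difference 4.04, scaled 4.72), while Herpud1, of the ER degradation machinery, had a median of 12.2 FPKM in CSP and 229 in mSSC cells (-3.24, scaled -3.15). Herpud1 was lower in 6C3+ and THY+ than in mSSC cells as well (-3.39 in 6C3+, scaled -2.57, and -3.35 in THY+, scaled -3.13). The ATF4 target Chac1 was detected in 3 of 34 6C3+ cells and 0 of 43 THY+ cells, against 13 of 37 mSSC cells, and Ppp1r15a, a phosphatase subunit that ends the stress response, differed from mSSC cells by -1.60 in 6C3+ (scaled -0.86) and -1.83 in THY+ cells (scaled -1.77). Of 13 further collagen modification and propeptide genes, 6 were lower and 2 higher in THY+ than in mSSC cells, also after scaling. In 6C3+ against mSSC cells 7 were lower and 1 higher, and 2 and 2 after scaling. In CSP against mSSC cells 0 were lower and 5 higher, and 0 and 6 after scaling, with the backgrounds as above. The 2 higher in THY+ cells were Adamts2, an N-proteinase, and Fkbp7, an ER isomerase. Adamts2 was detected in 20 of 43 THY+ cells against 2 of 37 mSSC cells, and Fkbp7 in 32 of 43 against 18 of 37. Pcolce2, a relative of Pcolce, went the other way, with 8 of 34 6C3+ and 9 of 43 THY+ cells against 17 of 37 mSSC cells, and 8 of 11 CSP cells had it at FPKM of at least 1. P3h1, the partner of Crtap in the 3-hydroxylation complex, had a median of 67 FPKM in CSP cells, against 4.27 in mSSC cells, and both partners were higher in CSP cells (differences 2.56 for P3h1, scaled 3.13, and 2.16 for Crtap, scaled 2.81). In the relation to the collagen sum, 8 of these 13 genes reached 0.3 in 6C3+ (7.37% of all genes) and 8 in THY+ cells (6.8%), with Sparc, a collagen-binding matrix protein, highest at 0.76 in 6C3+ and 0.65 in THY+ cells, and at 0.50 in mSSC cells. Of the COPII list, 5 of 20 in 6C3+, 8 of 20 in THY+ and 0 of 20 in mSSC cells did. The other lists had lower counts. Of the translocon list, 3 of 26 in 6C3+, 2 of 26 in THY+ and 2 of 26 in mSSC cells reached 0.3. Of the ER folding list, 4 of 20 in 6C3+, 2 of 20 in THY+ and 0 of 20 in mSSC cells did. Further unfolded protein response genes gave 0 of 8 in 6C3+, 1 of 7 in THY+ and 1 of 8 in mSSC cells.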

How the data were processed

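Single cells of 4 sorted populations were read from 1 table of FPKM deposited by the authors. The submitters' processing notes name mm10 and SAMtools; which aligner, FPKM program and annotation were used is not given in the sources used here. The deposited FPKM cover genes and spike-ins together, so a cell with more spike-in can have less left for its own genes; 92 spike-ins were removed before rescaling. Gene coordinates come from GENCODE vM21 for mm10 and promoter windows from RefSeq. Depth per cell is unknown. The 38 genes and the other lists were chosen with earlier results of these data known. Each population counted as 1 sample, no test was run, and the 4 comparisons used mean log2(FPKM + 1) over cells with at least 1000 genes. Members with a difference of at least 1 or a rho of at least 0.3 in absolute size are named, with up to 4 genes of the other lists per comparison by size of difference. Further genes of those lists were named after their values were seen. Alternatives were pseudocounts of 0.1 and 10, rescaling, the log2 of the mean, all cells, cells with at least 2000 genes, other detection filters, and for the relation other scalings and single collagens; subsets by index row or by pericyte or cartilage genes were added after seeing the data. The differences and the relation were checked on simulated data. Python 3.11.15, pandas 2.3.3, numpy 2.4.6, scipy 1.17.1 and matplotlib 3.10.9 were used. Protein sequences were not analysed here.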

Additional observations from a re-analysis of the deposited data

How the results depend on the processing

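Counts of members past a 2-fold difference are given as higher and lower, in the order CSP minus mSSC, THY+ minus mSSC, 6C3+ minus mSSC and 6C3+ minus THY+; as reported they were 12 and 4, 5 and 11, 3 and 14, and 1 and 3. Rescaled FPKM gave 17 and 1, 6 and 10, 9 and 8, and 10 and 1, and rescaling in cells with at least 2000 genes gave 2 lower in CSP, 8 higher and 9 lower in 6C3+ against mSSC, and 11 higher and 1 lower in 6C3+ against THY+. All cells, which adds those under 1000 genes, gave 0 and 28, 0 and 23, 0 and 32, and 0 and 17. The log2 of the mean FPKM gave 1 and 10 in CSP, 22 lower in 6C3+ against mSSC and 19 lower in 6C3+ against THY+. A pseudocount of 0.1 gave 7 lower in CSP, 6 higher in 6C3+ against mSSC, and 4 and 6 in 6C3+ against THY+; one of 10 gave 4 and 2 in CSP, 1 higher in THY+ and 0 higher in 6C3+ against THY+. Cells with at least 2000 genes gave 8 lower in 6C3+ against THY+, cells with at most 1 pericyte gene 2 and 6 there, and THY+ without the first 2 index rows gave 18 lower. In THY+ cells 19 members were detected in at least 50% of cells at FPKM of at least 10, against 30 at 1. A rho of at least 0.3 was reached by 23 members in 6C3+ and 2 in mSSC on FPKM as deposited, by 9 and 3 with Col1a1 alone, by 9 in 6C3+ and 6 in THY+ with Col2a1 alone, by 4 and 3 in all 6C3+ and all THY+ cells, and in THY+ by 11 without those index rows and 9 with at most 1 pericyte gene. Signs turned with all cells for Calr (-2.69), Colgalt1 (-1.61), Crtap (-1.24), Fkbp10 (-2.56), P4ha2 (-1.66), Pdia6 (-3.47), Plod2 (-2.04), Sec61a1 (-3.41), Sec61b (-3.33), Serpinh1 (-1.92) and Xbp1 (-0.99) in CSP minus mSSC, Pcolce (-2.44) in 6C3+ minus mSSC and Colgalt1 (-0.34) in 6C3+ minus THY+. They turned with the log2 of the mean for Crtap (-0.35), Fkbp10 (-0.5), Colgalt1 (-0.2), Pdia6 (-0.09) and P4ha2 (-0.02) in CSP and Pcolce (-0.37) in 6C3+ minus mSSC, and after rescaling for Plod2 (0.08, and 0.02 with at least 2000 genes) and Sec61a1 (0.13) in 6C3+ minus mSSC. Among rho values, Canx in 6C3+ was 0.02 as deposited and 0.12 in all cells, P4hb and Sec23a in THY+ were -0.01 and -0.0 in all cells, Colgalt1 in mSSC was 0.12 with Col1a1, Lox and Sec24d in THY+ and Sec61b in 6C3+ were -0.04, -0.04 and -0.05 with Col2a1, and Sec24d was -0.04 without those rows. The cause was not tested. No paired analysis was possible because no result comes from a test and cells carry no shared replicate. The number of cells, 11 in CSP, limits precision.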
